A study of Mus musculus with 12 samples.

Results

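The cytosolic ribosomal protein genes were followed as one family through 12 RNA-seq libraries of 2 mouse tumour cell lines. Members were taken from the deposited gene table by symbol: Rpl or Rps followed by a number and at most 1 letter (a, x, l or y), the stalk genes Rplp0, Rplp1 and Rplp2, Rpsa, and the paralogs Rpl36al, Rpl22l1 and Rpl7l1. Names of pseudogenes were not taken. This gave 86 of the 57180 rows, and 80 of the 86 had enough counts to be tested (49 proteins of the large and 31 of the small ribosomal subunit). The other 6, Rpl3l, Rpl39l, Rpl10l, Rps4l, Rpl6l and Rpl32l, had between 0 and 8 counts summed over all 12 libraries, so the family as tested leaves out these copies. The symbol rule also misses genes of ribosomal proteins that carry other names, of which Rps3a1, Fau and Rack1 are given apart.

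MB49 is a mouse bladder cancer line and KPC a mouse pancreatic ductal adenocarcinoma line, both labelled wild type and grown in serum-containing DMEM. Each line had 3 libraries labelled as controls and 3 labelled as given 8 Gy of radiation. The protocol gives 48 h of culture between radiation and collection, but no time for the controls, so time and dose cannot be told apart. The design text also speaks of senescent cells, but no library's labels say whether its cells were senescent. The labels do not tell whether libraries of 1 group stem from different cultures, and the p-values therefore reflect no more than the variation among the libraries at hand, which may be technical. All of MB49's uroplakin genes (Upk1a, Upk1b, Upk2, Upk3a and Upk3b), which define differentiated urothelium, were at or near 0, with at most 0.276 CPM (library-scaled count share) in a group mean. Of the other urothelial markers, Gata3 had 16.2 CPM in MB49 controls and 3.59 after 8 Gy. Krt5 and Krt20 had at most 0.753 CPM in MB49. Gata3 was not limited to MB49, with 18.2 CPM in KPC controls and 12.4 after 8 Gy, and Krt20 had 2.67 CPM in irradiated KPC. KPC libraries held the duct gene Krt19 (mean of 89.3 CPM in controls and 353 CPM after 8 Gy), while the epithelial gene Epcam was near 0 (0.209 CPM in each group). Duct genes were not limited to KPC: Sox9 had 134 CPM in MB49 and 145 CPM in KPC controls, and Pdx1 19.7 and 85.3 CPM. The summed level of 8 immune cell markers lay between 0.0573 and 4.29 CPM in every library. That of 8 fibroblast and endothelial markers was 59.2 to 82.7 CPM in MB49 controls and 145 to 212 CPM after 8 Gy, and 80.6 to 104 CPM in KPC controls and 33.1 to 39.1 CPM after 8 Gy. Within each line this sum moved in the same direction as the family's share, but the order of the 4 groups differed. Its part in the results was not tested. Single markers went different ways. In MB49 Dcn went from 41.2 to 128 CPM and Pdgfra from 12.7 to 36.8, while Col1a1 went from 15.1 to 5.34. In KPC Dcn was at most 0.23 CPM, and Col1a1 went from 81.5 to 28.6.

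A cytosolic ribosome is built from a small subunit, which reads the messenger RNA, and a large subunit, which joins the amino acids. Its proteins are made in about equal numbers and are assembled onto ribosomal RNA in the nucleolus, and ribosomal proteins that find no place in a ribosome are degraded. Most of their messenger RNAs are TOP mRNAs: they begin with a C and an unbroken run of pyrimidines, which the repressor LARP1 binds when the growth kinase mTORC1 is inactive. In tumour cells the genes are also known as targets of the transcription factor MYC. Unassembled RPL5 and RPL11, bound to 5S ribosomal RNA, inhibit MDM2 and so raise p53, a known link between ribosome assembly and the p53 response.

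Start-site sequences are given for members that the results turn on, to show where such a run lies at the annotated start and where none does. RefSeq's promoter table (GRCm38.p6) matched 64 of the 86 members by symbol. A pyrimidine run of at least 5 bases that begins with C, within 20 bases of the annotated start, was found in 52 of the 64 members (81.2%) and in 52.2% of the 27025 genes in the table. Within 5 bases of the start it was found in 27 members (42.2%) and in 18.6% of all genes. In the lines that follow, each gives 30 bases, from 10 before to 20 from the annotated start, with the run in capitals where there is one:
Rps6: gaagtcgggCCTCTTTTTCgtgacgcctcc
Rps27: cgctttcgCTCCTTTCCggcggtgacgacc
Rplp2: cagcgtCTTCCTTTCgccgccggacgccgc
Rpl22l1: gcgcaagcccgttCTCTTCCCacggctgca
Rpl12: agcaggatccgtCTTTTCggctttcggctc
Rpl41: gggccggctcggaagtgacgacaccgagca
Rps4x: gctgggcggagcaacccaggctccagcgcg
Rpl7l1: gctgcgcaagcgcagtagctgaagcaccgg

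These windows lie at chr4:86857348-86857377 (Rps6, minus strand), chr3:90213629-90213658 (Rps27, minus), chr7:141447641-141447670 (Rplp2, plus), chr3:28805498-28805527 (Rpl22l1, plus), chr2:32961702-32961731 (Rpl12, plus), chr10:128549149-128549178 (Rpl41, minus), chrX:102189372-102189401 (Rps4x, minus) and chr17:46782637-46782666 (Rpl7l1, minus), in GRCm38.p6. Each spans the start of the gene's first exon. The first 5 hold a run and the last 3 hold none in this window. The starts are annotated ones, and a counted run may begin before them. Which starts these cells use was not measured. Of the 5 with a run, Rps6, Rps27, Rplp2 and Rpl22l1 rose after radiation in MB49 and did not pass in KPC, and Rpl12 fell in both lines. Of the 3 without, Rpl41 and Rps4x rose in both lines and Rpl7l1 fell in both. The printed windows do not stand for all members. Rpl6 and Rpl11, which also rose in both lines, have runs of 6 and 16 bases that begin within 20 bases of the start. Rpl37 and Rps28 have no such run, and they rose in MB49 and did not pass in KPC. Over the 60 tested members with a promoter entry, the median log2 fold change after 8 Gy in MB49 was 1.34 in the 48 with a run within 20 bases of the start and 1.51 in the 12 without. In KPC the medians were -0.20 and 0.15. For a run within 5 bases the MB49 medians were 1.46 in the 26 with it and 1.37 in the 34 without, and those in KPC -0.27 and 0.09. The order of the MB49 medians thus turned with the window. In the whole window of 300 bases, on either strand, the ETS-family core CCGGAAG was present in 25 of 64 members (39.1%, against 9.9% of all genes) and the TATA box TATAAA in 8 (12.5% against 15.7%). These are matches of letters, and binding was not measured.

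The family took a large part of every library. The 86 members held 4.47%, 4.40% and 6.44% of all counts in the MB49 controls and 8.64%, 10.2% and 11.04% in the irradiated MB49 libraries. In KPC they held 10.1%, 9.72% and 7.81% in controls and 7.25%, 7.29% and 7.22% after 8 Gy. All irradiated MB49 libraries lay above all MB49 controls, and all irradiated KPC libraries lay below all KPC controls. The irradiated KPC libraries were nearly identical in this share (7.25 ± 0.031%, SD, n = 3), while the other groups had SDs of 1.15 to 1.22 percentage points. These are shares of a library: in bulk RNA fewer cells and less RNA per cell cannot be told apart.

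**Figure D1:**
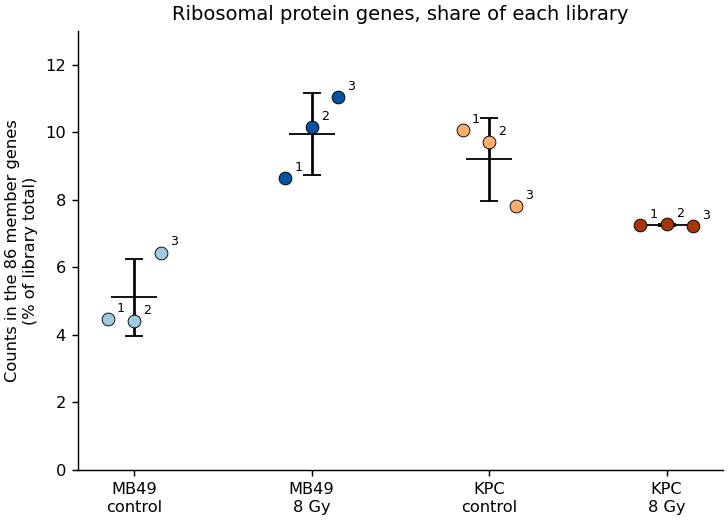
Share of each library's counts in the 86 ribosomal protein genes, in percent, for 12 libraries in 4 groups; points are libraries with their replicate number, bars the mean and SD (n = 3). MB49 libraries sit between 4.40% and 6.44% as controls and between 8.64% and 11.04% after 8 Gy, and the KPC groups lie in the opposite order.

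Some libraries stood apart. MB49 control replicate 3 (6.44%) lay well above the other MB49 controls, and KPC control replicate 3 (7.81%) below the other KPC controls. Library totals ran from 19006015 to 26337950 counts. In KPC control replicate 1 an 18S ribosomal RNA gene took 5.11% of counts, against 0.141 to 0.548% in the other 11 libraries. Short genes as a class moved with the family: among genes that are not members, the shortest eighth (median length 831 bases) had a median deviation from the genes' 12-library means of -0.54 and -0.47 on the log2 scale in MB49 control replicates 2 and 1, but of -0.11 in replicate 3. The members' median length was 789.5 bases, against 2705 for all genes tested. The results are given below with and without these libraries, and with a correction for gene length.

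Levels can be compared between genes only per length, as TPM (transcript share per length) computed from the table's length column. Rplp0, the protein that anchors the ribosomal stalk, stood first in all 4 groups, with 5830 ± 578 (SD, n = 3) in MB49 controls, 9291 ± 1058 after 8 Gy, 9978 ± 853 in KPC controls and 9216 ± 532 after 8 Gy. Rps2, a small-subunit protein at the mRNA entry channel, stood second in every group but irradiated MB49, where Rplp1 (8468 ± 1021) preceded Rps2 (8291 ± 608). These neighbours differed by less than their spread in every group except irradiated KPC. Over the 80 tested members the median was 1135 TPM in MB49 controls, 2058 in irradiated MB49, 1755 in KPC controls and 1421 in irradiated KPC.

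At the low end stood Rpl5, with 29.5, 21.4, 28.4 and 12.5 TPM in the same order of groups, and the paralog Rpl7l1, with 149, 29.1, 133 and 38.1 TPM. The Rpl5 row held 6579 counts over 12 libraries, and near-identical copies held 19% of the reads of this sequence, mainly in KPC controls (42.1%). In MB49 controls, irradiated MB49 and irradiated KPC they held 0.235%, 0.123% and 0.433%. The level of this row is uncertain, and why it was low was not tested. Rps15a and Rps20 are also low per length, but the table gives them lengths of 5130 and 3706 bases, far above the family's median, which lowers a level per length. The order of the members was much the same in all groups, with rank correlations of 0.86 to 0.944 between group means over the 80 genes, which share libraries within a group. Of 79 neighbouring pairs in the order, 3 differed by more than the larger SD in MB49 controls, 9 in irradiated MB49, 11 in KPC controls and 29 in irradiated KPC.

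In MB49, 8 Gy was followed by a rise of nearly the whole family. Relative to controls, 75 of 80 tested members rose, 2 fell (Rpl12 and Rpl7l1) and 3 did not pass the test (Rps13, Rpl5 and Rpl10a), by edgeR's quasi-likelihood test at an adjusted p under 0.05. Fold changes are given on the log2 scale with their standard error (SE, after ±), and p-values are adjusted over all genes by the Benjamini-Hochberg method. Among all 14362 genes tested, 35.3% were called higher and 31.6% lower (66.9% in all). The members' median log2 fold change was 1.37 (quartiles 1.11 and 1.66), against 0.04 over all genes. In 74 members every irradiated library lay above every control, as in 35.1% of all genes. Both subunits took part: 45 of 49 large-subunit genes rose (median 1.36) and 30 of 31 small-subunit genes (median 1.41).

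**Figure D2:**
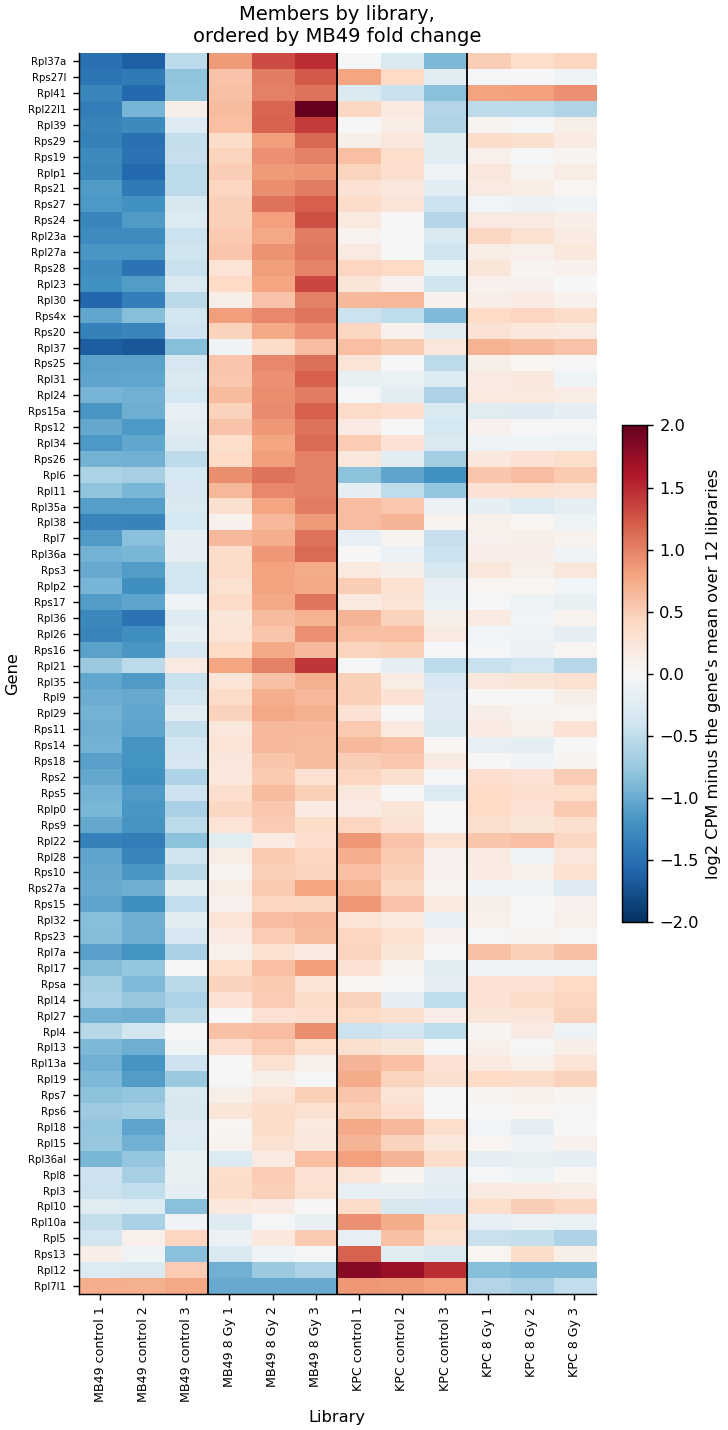
Level of 78 tested members in each of the 12 libraries, as log2 CPM minus the gene's mean over all libraries (colour), with genes ordered from the highest to the lowest MB49 fold change. Nearly all rows are low in MB49 controls, less so in replicate 3, and high in irradiated MB49; Rpl12 and Rpl7l1 at the bottom run the other way.

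MB49 control replicate 3 was the control nearest to the irradiated libraries, and without it the median was 1.63. Leaving out any 1 of the 6 libraries gave 75 higher and 2 lower, with medians of 1.23 to 1.63. Gene length moved with the result. Among genes that are not members, the median in MB49 went from 0.61 in the shortest eighth to -0.28 in the longest (median 6961 bases). With each library corrected for gene length in 20 bins, 68 members still rose and 3 fell, but the median was 0.69 in place of 1.37. The part of this trend in the members' rise was not tested further. Over all 16 alternatives of this comparison, 68 members were called higher in each and Rpl12 and Rpl7l1 lower in each. Members that rose but lost the call in at least 1 included Rpl10, Rpl19, Rpl36al and Rpl18.

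**Figure D3:**
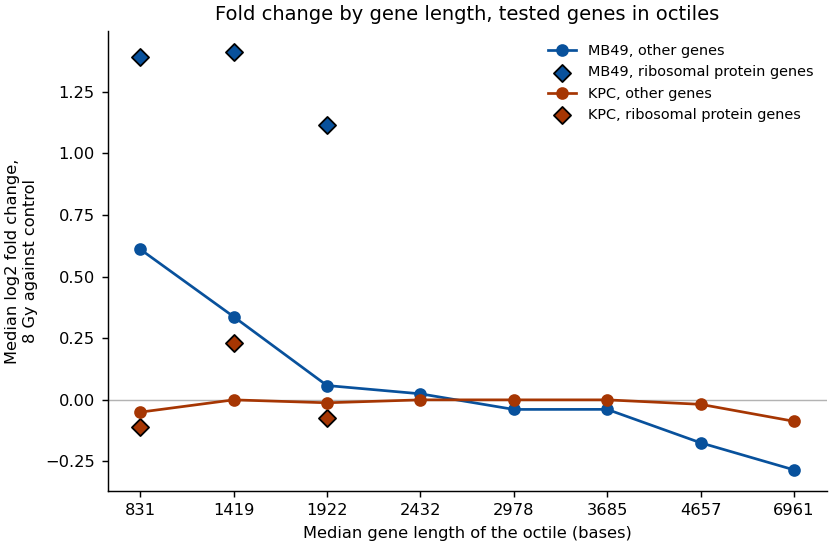
Median log2 fold change after 8 Gy by gene length, in eighths of the 14362 tested genes; lines join genes that are not members, diamonds are members where an eighth holds at least 5. In MB49 the line falls from 0.61 to -0.28 and the members lie above it; in KPC the line stays between -0.09 and 0.00.

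The stalk proteins recruit the elongation factors to the large subunit, and all 3 rose in MB49. Rplp0 had 3153, 2653 and 3812 CPM in controls and 7906, 8626 and 6689 CPM after 8 Gy. Its groups did not overlap (log2 fold change 1.27 ± 0.15, adjusted p = 9.78e-07). Rplp1 rose from 633, 524 and 1076 to 2160.1, 2793 and 2836 CPM, where replicate 1 was the lowest of the irradiated libraries and replicate 3 the highest of the controls. Rplp2 rose by 1.44 ± 0.20, adjusted p = 9.90e-06.

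The largest fold changes in MB49 were those of Rpl37a, Rps27l, Rpl41, Rpl22l1 and Rpl39. Rpl37a, a zinc-binding protein of the large subunit, went from 95.9, 87.3 and 187 to 486, 670.2 and 751 CPM (2.37 ± 0.30, adjusted p = 1.43e-05), with replicate 3 again the highest control. Rpl41, the shortest ribosomal protein, went from 355, 297 and 504 to 1309, 1749 and 1864 CPM (2.09 ± 0.19, adjusted p = 5.08e-08). Rpl39, which lines the exit tunnel for new proteins, rose by 1.96 ± 0.30, adjusted p = 0.000104. Rps27l, a paralog of Rps27 known as a p53 target, went from 46.0, 47.0 and 71.8 to 186, 256 and 294 CPM and rose by 2.16 ± 0.25, adjusted p = 2.85e-06. The rank correlation between a member's length and its fold change was -0.31 (-0.308) over the 80 members in the same 6 libraries, a description only. With the correction for length Rpl41 rose by 1.20.

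Abundant members of both subunits rose as well. Rpl3, at the catalytic centre of the large subunit, had 2148, 2060.1 and 2574 CPM in controls and 3749, 4060.0 and 3583 after 8 Gy (0.75 ± 0.12, adjusted p = 3.45e-05). Rps6, the small-subunit protein that the S6 kinases phosphorylate, went from 968, 992 and 1279 to 1891, 2048 and 1976 CPM (0.87 ± 0.14, adjusted p = 4.05e-05). Both had groups that did not overlap. Rpsa, known also as the laminin receptor precursor, rose by 1.12 ± 0.13, adjusted p = 8.23e-07, and Rps27a, made as a fusion with ubiquitin, by 1.20 ± 0.22, adjusted p = 0.000119.

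Members tied to p53 and to disease moved with the rest. Of 10 members known to bind MDM2 or its partners, 9 rose in MB49 and 1 did not pass (median 1.50). The 9 made 90% of the list, against 35.3% of all genes called higher. Rpl11 went from 320.2, 294 and 442 to 878, 1086 and 1114 CPM (1.54 ± 0.17, adjusted p = 4.44e-07). Its 5S partner Rpl5 had 17.8, 24.6 and 30.8 CPM in controls and 21.2, 26.5 and 32.9 after 8 Gy. The groups overlapped (0.14 ± 0.21, adjusted p = 0.561 by edgeR's test). As said above, the Rpl5 row is low and its level uncertain. Of 19 members whose human counterparts are mutated in Diamond-Blackfan anaemia, an inherited failure of red cell formation, 18 rose and 1, Rpl5, did not pass (median 1.53). The 18 made 94.7% of that list, against the same 35.3% of all genes. Rps19, the gene most often mutated there, rose by 1.81 ± 0.26, adjusted p = 3.28e-05.

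The members that fell were Rpl12 and Rpl7l1. Rpl12 sits at the base of the stalk. It had 147, 146 and 252 CPM in MB49 controls and 90.9, 106 and 116 after 8 Gy (-0.80 ± 0.18, adjusted p = 0.000781), and the groups did not overlap. Rpl7l1, a divergent relative of Rpl7, had 154, 153 and 159 CPM in controls and 46.4, 46.5 and 46.3 after 8 Gy. It fell by 1.74 ± 0.10 on the log2 scale (SE, adjusted p = 1.38e-10) with very little spread in either group. Both falls were called under all 16 alternatives.

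In KPC the family did not move as one. After 8 Gy, 10 of 80 members rose, 11 fell and 59 did not pass the test, while 31.3% of all genes tested were called higher and 32% lower (63.3% in all). The members' median log2 fold change was -0.09 (quartiles -0.35 and 0.23), against -0.01 over all genes. With library totals in place of TMM factors the median was -0.47, but that of all genes was -0.39, so the members lay 0.08 below it in both. Counting separated libraries, 15 members had all irradiated libraries above the controls (34.7% of all genes) and 15 all below (35%). The counts depended on the settings: 16 rose and 12 fell by DESeq2, 21 and 15 with the length correction, 4 and 39 with library totals, and 5 and 18 without KPC control replicate 3. Leaving out MB49 control replicate 3 together with it gave 10 and 29. Without KPC control replicate 1 it was 14 and 6, and the median turned to 0.08. It was 7 and 6 without KPC control replicate 2 or without irradiated KPC replicate 1, 6 and 6 without irradiated replicate 2, and 6 and 8 without irradiated replicate 3.

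**Figure D4:**
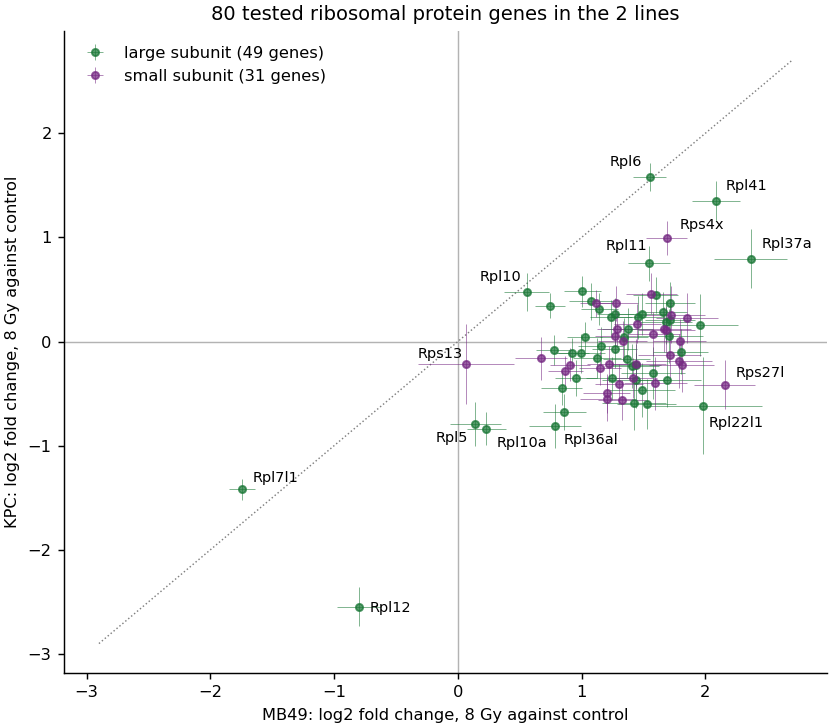
Log2 fold change after 8 Gy in MB49 (horizontal) and KPC (vertical) for the 80 tested members, coloured by subunit; thin bars are standard errors and the dotted line marks equal change. Most points lie right of 0 in MB49 and close to 0 in KPC; Rpl6 lies on the line, and Rpl12 and Rpl7l1 are low in both.

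Members that rose in KPC under all 16 alternatives were Rpl6, Rps4x, Rpl11 and Rpl41. Rpl6, a large-subunit protein, had 729, 619.5 and 554 CPM in controls and 1886, 1965 and 1838 after 8 Gy (1.58 ± 0.13, adjusted p = 1.85e-08). In MB49 it went from 828, 815 and 1012 to 2456, 2736 and 2586 CPM (1.55 ± 0.13, adjusted p = 2.02e-08). The responses of Rpl6 in the lines differed by 0.03 ± 0.18 (adjusted p = 0.934), and it was the largest rise of the family in KPC but an ordinary one in MB49.

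Rpl41 went from 717, 643 and 490.2 to 1526, 1542 and 1656 CPM in KPC (1.35 ± 0.19, adjusted p = 8.01e-06). Rps4x, the X-linked copy of a small-subunit protein, went from 658, 617 and 480.1 to 1165, 1190.3 and 1135 CPM (0.99 ± 0.16, adjusted p = 4.51e-05). Rpl11 went from 492, 393 and 326 to 682, 685 and 676 CPM (0.75 ± 0.17, adjusted p = 0.000814). In each of these the irradiated libraries lay close together and above all controls. The other 6 that rose were Rpl37a, Rpl4, Rpl10, Rpl24, Rpsa and Rpl3, and each lost the call in at least 1 alternative. All 10 had also risen in MB49. Over all genes, 20.2% were called higher in both lines.

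Members that fell in KPC under all 16 alternatives were Rpl12, Rpl7l1, Rpl10a, Rpl36al, Rpl5 and Rpl18. Rpl12 had 626, 578 and 495 CPM in controls and 98.4, 96.5 and 96.2 after 8 Gy, a fall of 2.55 ± 0.19 on the log2 scale (adjusted p = 3.00e-09). All 6 irradiated libraries of the lines held between 90.9 and 116 CPM of Rpl12, while the controls of the lines did not overlap. Rpl7l1 went from 169.6, 169 and 163 to 62.3, 59.1 and 66.3 CPM (-1.42 ± 0.10, adjusted p = 1.91e-09). Rpl10a, of the L1 stalk where used tRNA leaves, went from 1632, 1449.7 and 1129 to 768, 799.8 and 789 CPM (-0.84 ± 0.16, adjusted p = 0.000171). Rpl12 and Rpl7l1 were lower in both lines, as were 19.9% of all genes.

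The other 5 that fell in KPC were Rpl15, Rps27a, Rps14, Rpl35a and Rps15, all of which had risen in MB49 and lost the KPC call in at least 1 alternative. Rps27a had 1155, 945 and 738 CPM in controls and 666, 676 and 595 after 8 Gy (-0.55 ± 0.21, adjusted p = 0.0329). KPC control replicate 3 was the lowest control for each of these. The stalk genes did not pass in KPC: Rplp0 had 6650.5, 7015 and 6031 CPM in controls and 7863, 7289.6 and 8553 after 8 Gy (0.27 ± 0.15, adjusted p = 0.125), groups that did not overlap, while those of Rplp1 and Rplp2 overlapped. Of the MDM2-binding members 1 rose and 2 fell (10% and 20%, median -0.20). Of the Diamond-Blackfan members 1 rose and 4 fell (5.26% and 21.1%, median -0.21). These shares lay below those of all genes (31.3% higher and 32% lower). Other abundant members that did not pass were Rps2 (0.12 ± 0.16, adjusted p = 0.534) and Rps3 (0.17 ± 0.19, adjusted p = 0.442).

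**Figure D5:**
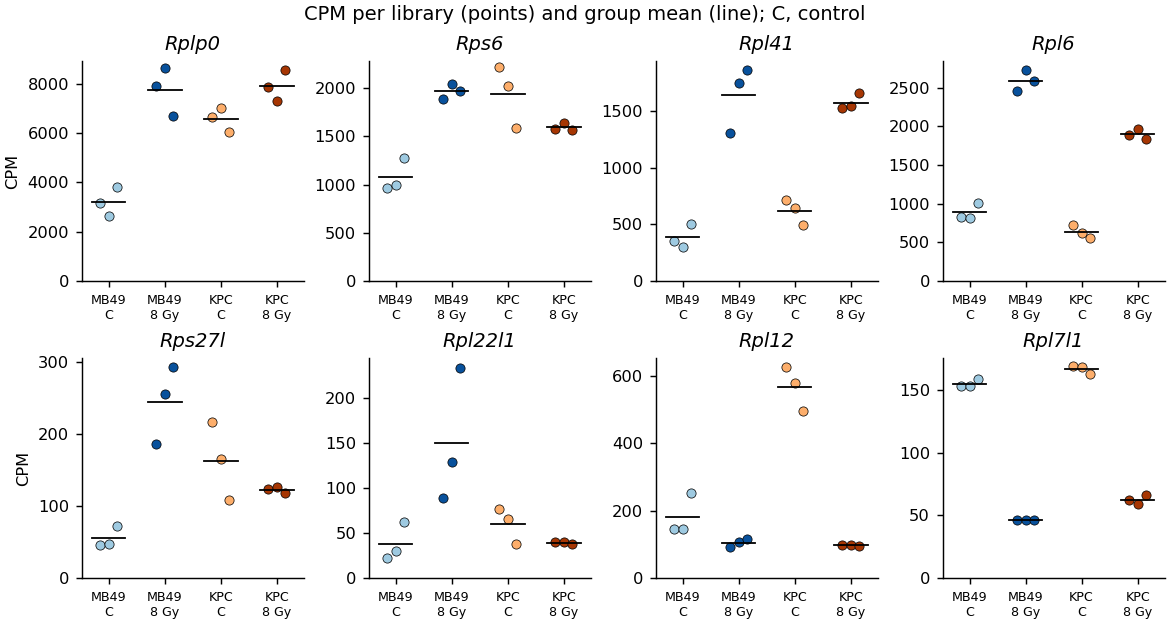
CPM of 8 members in each of the 12 libraries (points) with the group mean (line), on linear axes from 0. Rpl41 and Rpl6 are higher after 8 Gy in both lines, Rpl12 and Rpl7l1 lower in both, and Rplp0, Rps6, Rps27l and Rpl22l1 are higher after 8 Gy in MB49 alone among called changes.

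The responses of the lines differed for most members. The test of the difference (KPC response minus MB49 response) called 74 of 80 members lower and 0 higher, with a median of -1.36 against -0.02 over all genes. Of all genes 22% were called lower and 20.9% higher (42.9% in all). Without adjustment at a p under 0.05, edgeR gave 76 lower and 1 higher (Rpl7l1, 0.33 ± 0.14, adjusted p = 0.0702), and DESeq2 called 76 lower and 1 higher after adjustment. The 6 members not called were Rpl7l1, Rpl6, Rpl10, Rps13, Rpl3 and Rpl4. With the length correction 55 were lower, 0 higher, and the median was -0.68. Without KPC control replicate 1 it was 69 lower and 1 higher, with a median of -1.18. Without MB49 control replicate 3 it was 76 lower with a median of -1.63, and 54 members were called lower in all 21 alternatives.

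The largest differences belonged to the paralogs Rpl22l1 (-2.60 ± 0.66, adjusted p = 0.0117) and Rps27l (-2.57 ± 0.34, adjusted p = 4.45e-05). Rpl22l1 had 22.0, 30.0 and 62.5 CPM in MB49 controls and 88.8, 129 and 234 after 8 Gy, where the irradiated libraries spread widely but all lay above the controls. In KPC it had 76.3, 65.5 and 38.2 CPM in controls and 39.9, 39.7 and 37.9 after 8 Gy, with overlapping groups. Rpl35a, Rpl30 and Rps19 followed, at -2.13, -2.06 and -2.04.

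Among controls the family stood higher in KPC than in MB49. Of 80 members, 67 were called higher in KPC controls, 1 was lower (Rpl6) and 12 did not pass, while 33% of all genes were called higher and 34.4% lower (67.3% in all). All KPC controls lay above all MB49 controls for 50 members (33.3% of all genes) and below for 1 (35.3%). The median was 0.92, against -0.02 over all genes. Leaving out 1 library gave between 54 higher with a median of 0.74 (without KPC control replicate 1) and 72 higher with a median of 1.20 (without MB49 control replicate 3). It was 56 and 0.81 without MB49 control replicate 2, 59 and 0.81 without MB49 control replicate 1, and 70 and 1.06 without KPC control replicate 3. It was 52 higher and 4 lower, with a median of 0.48, with the length correction. The largest differences were Rpl37 (1.80 ± 0.21, adjusted p = 1.03e-06), Rpl22 (1.75 ± 0.18, adjusted p = 1.89e-07) and Rpl12 (1.64 ± 0.18, adjusted p = 3.65e-07). Rpl37, a zinc-binding protein of the large subunit, had 238, 228 and 409.7 CPM in MB49 controls and 1122, 1066 and 870.5 in KPC controls. Rpl6 was lower in KPC by 0.48 ± 0.13 (adjusted p = 0.00366), and called so in all 16 alternatives.

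After radiation the order of the lines turned for many members. Irradiated KPC had 44 of 80 members lower than irradiated MB49, 3 higher (Rpl7l1, Rpl19 and Rpl7a) and 33 not called, with a median of -0.49 against -0.09 over all genes. Of all genes 33.4% were called lower and 31% higher (64.4% in all). The libraries of the lines did not overlap for 52 members that were lower in KPC (36.4% of all genes) and 6 that were higher (34.3%). The number lower was 27 without irradiated MB49 replicate 3, the number higher was 1 without irradiated MB49 replicate 1 or irradiated KPC replicate 3, and with the length correction 37 were lower and 7 higher with a median of -0.23. Rpl21 stood lowest apart from Rpl22l1: it had 1066, 1236 and 1647 CPM in irradiated MB49 and 453, 469 and 414 in irradiated KPC (-1.56 ± 0.22, adjusted p = 8.79e-06). These comparisons share their libraries with those above and are not independent of them.

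Paralogs and their parent genes were compared within each library, per length, with no test. The ratio of Rpl7l1 to Rpl7 went from 10.7% in MB49 controls to 1.08% after 8 Gy and from 7.79% to 2.38% in KPC, so every irradiated library lay below every control of its line. Rpl36al against Rpl36a went from 62.2% to 38.6% in MB49 and from 103% to 50.4% in KPC, again with no overlap. Rps27l against Rps27 went from 21.2% to 26.9% in MB49 and from 31.8% to 27.4% in KPC, in opposite directions and with no overlap in either line. Rpl22l1 against Rpl22, which is known to repress it, went from 138% to 229% in MB49 and from 66.3% to 46.4% in KPC. Its groups overlapped in MB49 and did not in KPC. Of the testis- or muscle-type copies Rpl39l, Rpl3l, Rpl10l and Rps4l, none had more than 5 counts in all libraries together.

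Ribosomal protein genes have many processed copies, and reads can be split between them. At least 1 near-identical copy was found for 79 of the 86 members, 666 copies in all (95% identity over at least 50% of a transcript). The copies held a large part of the family's reads for a few members: Rpl10 (62.7% of the summed counts, nearly all in Rpl10-ps3), Rpl27a (60.7%), Rps13 (43.2%), Rps23 (39.3%) and Rpl10a (34.2%). Values of these rows are uncertain. With copies added, Rps13 rose by 1.10 in MB49 (0.07 and not called without them) and Rpl10 by 1.26 instead of 0.56, while the KPC rise of Rpl10 went from 0.48 to 0.19 and lost its call. The KPC fall of Rpl10a was then 0.50 instead of 0.84, and that of Rpl5 was 1.60 instead of 0.79. Rpl6, Rps4x, Rpl11, Rplp0 and Rpl7l1 had at most 0.04% of reads in copies, and Rpl12 had 2.39% over all libraries (10.4% in MB49 controls). Adding all copies left 77 members higher and 2 lower in MB49.

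Ribosomal protein genes with other names were tested alike. Rps3a1, Fau and Rack1 all rose in MB49: Rps3a1 went from 456.1 ± 132 to 1085 ± 198 CPM (SD, n = 3; 1.25 ± 0.18, adjusted p = 1.19e-05), Fau, made as a fusion with a ubiquitin-like protein, rose by 1.10 ± 0.19, and Rack1, a scaffold on the small subunit, by 0.76 ± 0.13. In KPC Rps3a1 rose (0.49 ± 0.18, adjusted p = 0.0260), while Fau (-0.14 ± 0.19) and Rack1 (-0.13 ± 0.13) did not pass. All 3 were lower in the difference of responses, by edgeR's test (-0.76, -1.23 and -0.89 for Rps3a1, Fau and Rack1). Proteins of the mitochondrial ribosome, a separate family, had 42 of 78 members higher and 16 lower in MB49 (53.8% and 20.5%, against 35.3% and 31.6% of all genes; median 0.41). In KPC 11 were higher and 33 lower (14.1% and 42.3%, against 31.3% and 32%; median -0.25).

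Other TOP mRNAs encode translation factors and share the pyrimidine start. Of 18 such genes, 16 rose in MB49 (88.9%, against 35.3% of all genes; median 1.11) and 12 in KPC (66.7%, against 31.3%; median 0.57). The others did not pass. Eef1a1, the elongation factor that delivers tRNA, went from 6231 ± 264 to 16790 ± 620 CPM in MB49 (SD, n = 3; 1.43 ± 0.12, adjusted p = 1.20e-08) and from 4968 ± 228 to 18191 ± 1062 in KPC (1.87 ± 0.12, adjusted p = 5.13e-10). Pabpc1, the poly(A)-binding protein, rose by 1.47 ± 0.12 in MB49 and 1.83 ± 0.12 in KPC. In the difference of responses 7 of the 18 were called lower and 1 higher (38.9% and 5.56%, against 22% and 20.9% of all genes).

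Most genes of ribosome biogenesis were called lower in both lines. Of 39 tested ribosome biogenesis genes, 32 fell (82.1%, against 31.6% of all genes) and 1 rose in MB49 (median -1.60). In KPC 31 fell (79.5%, against 32%) and 3 rose (median -1.16). Nop56, of the particles that guide methylation of ribosomal RNA, went from 349.6 ± 19.6 to 23.8 ± 1.16 CPM in MB49 (-3.88 ± 0.12, adjusted p = 6.17e-14) and from 311 ± 10.7 to 44.5 ± 1.84 in KPC (-2.81 ± 0.11, adjusted p = 9.26e-13). Polr1b, a core subunit of RNA polymerase I, fell by 3.83 ± 0.17 on the log2 scale in MB49 and by 2.97 ± 0.17 in KPC. The 1 that rose in MB49 was Polr1c (0.53 ± 0.13), and the largest rise in KPC was that of Noc4l (1.37 ± 0.14).

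A list of 11 assembly genes was tested, and the chaperones Grwd1 and Tsr2 were set beside their clients. The list holds chaperones that carry single ribosomal proteins, but also Sbds and Efl1, which are set beside no client. Of the 11 genes 7 fell (63.6%, against 31.6% of all genes) and 2 rose in MB49. In KPC 6 fell (54.5%, against 32%) and 2 rose. Grwd1, the chaperone of RPL3, went from 68.4 ± 9.45 to 4.81 ± 0.452 CPM in MB49 (-3.83 ± 0.15) while Rpl3 rose by 0.75. In KPC Grwd1 changed by -2.56 ± 0.14 and Rpl3 by 0.34. Tsr2, the chaperone of RPS26, changed by -2.74 ± 0.15 in MB49 and -2.77 ± 0.16 in KPC, while Rps26 rose by 1.56 in MB49 and did not pass in KPC (0.46, adjusted p = 0.0543). Heatr3, which carries RPL5, changed by -3.50 ± 0.14 and -2.04 ± 0.13. These 3 are among the largest falls of the list. The 2 that rose in MB49 were Aamp (0.96 ± 0.14) and Pdcd2l (0.51 ± 0.14). Those that rose in KPC were Aamp (0.84 ± 0.14) and Nap1l1 (0.58 ± 0.16).

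Regulators of the family differed between the lines in part. Myc fell in both, from 1348 ± 102 to 72.6 ± 10.8 CPM in MB49 (-4.21 ± 0.15, adjusted p = 4.11e-13) and from 632 ± 61.5 to 52.5 ± 3.40 in KPC (-3.59 ± 0.15, adjusted p = 1.29e-12). Larp1, which binds TOP mRNAs, went from 403 ± 17.5 to 175 ± 18.7 CPM in MB49 (-1.21 ± 0.12, adjusted p = 1.90e-07) and from 352 ± 38.4 to 309 ± 25.5 in KPC (-0.19 ± 0.12, adjusted p = 0.185). The difference of the Larp1 responses was 1.02 ± 0.17 (adjusted p = 0.000192). Tsc2, which restrains mTORC1, rose by 0.92 ± 0.15 in MB49 and by 1.74 ± 0.15 in KPC. Of 11 regulators tested, 3 rose and 8 fell in MB49 (27.3% and 72.7%, against 35.3% and 31.6% of all genes). In KPC 2 rose and 4 fell (18.2% and 36.4%, against 31.3% and 32%), where the share that fell was near that of all genes.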

How the data were processed

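Stranded mRNA libraries were made from total RNA of 12 samples in 4 groups of 3, per the labels' protocols. The submitters' processing notes name fastp, HISAT2, StringTie and the build GRCm39; for versions, the counter and its strand setting, the sources used here give nothing. The table deposited by the authors holds estimated counts per gene, of which 6.2 to 8.65% per library were not whole; they were rounded here. The table's group-mean columns were not used. Rows without a symbol (525, with 0.184 to 0.449% of counts) were kept.

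Counts were tested in R 4.3.3 with edgeR 4.0.16 (filterByExpr, TMM factors of 0.829 to 1.18, quasi-likelihood F test, all 4 groups in 1 fit with 8 residual degrees of freedom, common biological coefficient of variation 0.15) and limma 3.58.1. After removal of 42818 low genes, 14362 were tested, with adjusted p under 0.05 called. The SE is the absolute log2 fold change divided by the square root of F. CPM and TPM were computed from the counts and the table's lengths. The code was tested on simulated data in which 200 of 14362 genes changed in 1 group. In the MB49 data 66.9% of genes were called, so the simulated setting differs from the real one. Of the simulated calls 8.94% were false, above the nominal threshold of 0.05. Changes of 1 on the log2 scale were recovered in 72% of cases and changes of 2 in 91%. Library totals of 19006015 to 26337950 set the counting precision.

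Alternatives were library totals, TMM factors and library sizes without members and 18S rRNA, DESeq2 1.42.0, no filter, only the groups compared, a replicate block, an offset per library for gene length in 20 bins, pseudogenes added to their parents, and each library left out. Near-identical copies added (95% identity over at least 50% of the shorter GENCODE vM21 transcript, BLAST 2.17.0), and replicate 3 of both control groups left out together, were chosen after seeing the data. The genes named are stalk, 5S and paralog members, the 5 highest and 5 lowest in each comparison, and those called against the majority. Also named are those of extreme level, Myc and Larp1, and some extremes of the other lists. Not every such extreme is named, and none of the mitochondrial list is. A name outside this rule, such as another member called in KPC or a chaperone beside its client, was chosen after its values were seen. Members and lists were chosen with earlier results of these data known. Some items are not reported here.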

Additional observations from a re-analysis of the deposited data

Results flagged for a closer look

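The response to 8 Gy differed between the lines for 74 members, by edgeR's test of the difference itself (KPC response minus MB49 response), and each of them was lower in KPC. Among the members named by rule, the paralogs and their parents had differences of -2.60 for Rpl22l1 and -1.34 for Rpl22, -2.57 for Rps27l and -1.97 for Rps27, -1.59 for Rpl36al and -1.22 for Rpl36a. Rpl7 also differed by -1.22. The stalk members differed by -1.0045 (Rplp0), -1.90 (Rplp1) and -1.66 (Rplp2). The members with the largest differences besides these were Rpl35a (-2.13), Rpl30 (-2.06) and Rps19 (-2.04). The exit-tunnel protein Rpl39 differed by -1.80 and the ubiquitin fusion Rps27a by -1.75. Rps6 differed by -1.15 and Rpsa by -0.75. The MDM2-binding pair Rpl5 and Rpl11 differed by -0.93 and -0.79. Rpl41 (-0.74) and Rps4x (-0.70), which rose in both lines, rose less in KPC. For Rpl41 this did not hold with the correction for gene length, where the difference was 0.25.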

How the results depend on the processing

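The MB49 counts stayed at 68 to 77 members higher and 2 or 3 lower in every alternative. Where a result turned or a count moved, the cause was not tested. With library totals, KPC had 4 members higher and 39 lower (median -0.47), Rpsa and Rpl3 turned to -0.018 and -0.042 there, and 1 member was higher in irradiated KPC than in irradiated MB49. With the length correction the medians were 0.69 in MB49, -0.68 in the difference and -0.23 between irradiated lines, with 21 higher in KPC, 4 lower between controls and 7 higher between irradiated lines. Under it Rpl36al (-0.12), Rpl10 (-0.085) and Rpl10a (-0.36) turned in MB49, Rpl41 in the difference (0.25) and between irradiated lines (0.30), and Rpl11 (-0.30) and Rps4x (-0.35) between controls. With pseudogenes or all near-identical copies added, Rpl10 (-0.50) and Rps13 (-0.93) turned between irradiated lines. DESeq2 called 16 higher in KPC and 1 in the difference, as did TMM without members and 18S rRNA (1). Without a filter 22 were lower in KPC and 7 higher between irradiated lines. With only the compared groups fitted it was 16 higher and 21 lower in KPC and 6 higher between irradiated lines. Without control replicate 3 of both lines 29 were lower in KPC, 1 was higher in the difference, and 6 were higher and 51 lower between irradiated lines. Leaving out single libraries gave 5 to 14 higher and 6 to 18 lower in KPC, 0 to 1 higher in the difference, and 1 to 3 higher and 27 to 49 lower between irradiated lines. The share in irradiated KPC was 7.33% without 18S and mitochondrial counts and 7.50% with pseudogenes, and 27 members had a pyrimidine run within 5 bases. Same-numbered samples did not deviate together (r of 0.171, -0.178 and 0.055 in MB49, and -0.116, -0.023 and 0.019 in KPC). With 3 libraries per group these values cannot decide whether the numbers pair samples, and the labels do not say. With a replicate block 75 members were higher and 2 lower in MB49 (median 1.37), 9 and 12 in KPC, 0 and 72 in the difference, 67 and 1 between controls and 2 and 39 between irradiated lines. Of the values of single named members, 2106 kept direction and call, 82 lost the call, 78 gained it and 13 turned.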
